A study of Homo sapiens with 4 samples.

Results

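Among the genes whose signal moved far in PC3 cells after depletion of the DNA demethylase ALKBH3 were FAM20A and ITM2A, and the FAM20 and ITM2 families were followed gene by gene to set both against their close relatives. The families hold 6 genes, FAM20A, FAM20B, FAM20C, ITM2A, ITM2B and ITM2C, which 9 of the 34127 probes on the array measure and which make up 6 of the 19102 genes that could be named. The families were chosen because FAM20A fell and ITM2A rose in these arrays, so their differences between the shRNAs are described here and carry no test.

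PC3 is a line of human prostate cancer cells derived from a metastasis. Lentiviruses brought either an ALKBH3 shRNA or a GFP shRNA, the control, into the cells over 48 h of infection, and puromycin selection followed, with harvest 48 h or 96 h later. An array for each shRNA at each time makes 4 single-colour Agilent arrays, all of infected and drug-treated cells, and an shRNA is repeated only across the times. The labels do not name the sequence of the ALKBH3 shRNA and give only 1, and the 48 h arrays shared 1 slide and the 96 h arrays the other, so time point and slide cannot be told apart. ALKBH3 itself read -2.05 (SE 0.11) on the log2 scale between the shRNAs on probe A_23_P35989 and -1.63 (SE 0.13) on A_33_P3225250, with every ALKBH3 shRNA array below every control array.

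The FAM20 proteins work in the secretory pathway. FAM20C is the Golgi kinase that phosphorylates secreted proteins, among them those of bone and enamel, FAM20A is a pseudokinase that binds FAM20C and raises its activity, and FAM20B phosphorylates the xylose that links glycosaminoglycan chains to proteoglycans. The ITM2 proteins span the membrane once and carry a BRICHOS domain, a fold that chaperones the cleaved end of the protein that holds it. ITM2A is best known from T cells, cartilage and muscle, ITM2B (BRI2) is cut by furin and can hold back the processing of the amyloid precursor protein APP, and ITM2C (BRI3) is a relative abundant in brain.

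FAM20A lies on chromosome 17 (68535116 to 68601367), FAM20B on 1 (179017334 to 179076567) and FAM20C on 7 (192571 to 260772), and ITM2A lies on X (79360384 to 79367334), ITM2B on 13 (48233206 to 48270357) and ITM2C on 2 (230864185 to 230879254), in GRCh38.p14. RefSeq promoter windows of this build, 250 bases before to 50 bases after a start, were found for 4 of the 6 genes. The window of ITM2A is shown because its probe was above background only with ALKBH3 shRNA, and that of ITM2C because this relative was well above background on all arrays. ITM2C has 3 windows, of which the middle one by position was printed, chosen after all were seen. Capitals mark the only matches to the 5 motifs searched on both strands, which are the TATA core TATAA, the CCAAT box, the cyclic AMP half-site TGACG, the interferon regulatory factor core AANNGAAA and the ETS core CCGGAAG.
ITM2A, chrX:79367285-79367584, minus strand: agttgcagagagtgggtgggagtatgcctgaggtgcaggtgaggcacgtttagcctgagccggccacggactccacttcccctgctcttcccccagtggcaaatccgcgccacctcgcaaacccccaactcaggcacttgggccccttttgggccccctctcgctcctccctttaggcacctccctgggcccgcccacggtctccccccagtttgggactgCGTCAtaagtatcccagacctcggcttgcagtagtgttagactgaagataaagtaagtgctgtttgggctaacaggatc
ITM2C, chr2:230864692-230864991, plus strand: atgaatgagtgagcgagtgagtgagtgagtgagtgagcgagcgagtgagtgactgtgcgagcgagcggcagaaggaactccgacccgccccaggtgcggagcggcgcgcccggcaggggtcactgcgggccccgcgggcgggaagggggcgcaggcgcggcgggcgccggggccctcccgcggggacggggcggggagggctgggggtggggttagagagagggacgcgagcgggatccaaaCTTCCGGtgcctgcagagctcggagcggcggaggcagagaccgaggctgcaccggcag

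The ITM2A window held 11 CpG pairs, and 45.3% of the 35116 promoter windows held fewer, while the printed ITM2C window held 36, and 87.3% held fewer. The other ITM2C windows held 7 CpG pairs, with no motif match, and 37. In ITM2A, TGACG was matched on the reverse strand from base -29, counted from the start site, a motif in 24.6% of all windows. In ITM2C, CCGGAAG was matched on the reverse strand from base -8, a motif in 10.3% of all windows. TATAA (20.4% of all windows), the CCAAT box (34.6%) and AANNGAAA (22.8%) were not in these letters of either window. FAM20B had 47 CpG pairs and no match, and FAM20C had 45, with 1 match to the CCAAT box and 1 to TGACG. A match is a run of letters and says nothing on binding in these cells.

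The values below are log2 signals, the log2 of the background-corrected spot intensity less the 75th percentile of that array, which lay between 2150 and 2394 intensity units. They are compared between arrays for 1 probe at a time, never between probes, and only marker signals are summed over genes. On the 4 arrays, 67.0% to 70.9% of probes were well above background by the test of the scanner software, 23244 probes entered the tests, and spots of the same probe on 1 array differed with an SD between 0.085 and 0.097 on the log2 scale. All 9 probes of the families were tested, none of their spots was saturated or flagged, and 8 of the 9 were well above background on all 4 arrays.

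FAM20A gave the lower values with ALKBH3 shRNA at both times. On probe A_32_P108254 its intensity was 1692 with control and 792 with ALKBH3 shRNA at 48 h, then 1240 with control and 259 with ALKBH3 shRNA at 96 h. As log2 signals these were -0.35 and -1.53 at 48 h, and -0.92 and -3.21 at 96 h. The 4 arrays were in the order control 48 h, control 96 h, ALKBH3 48 h and ALKBH3 96 h, and each step down was greater than 1.96 times the combined spot error that the software gives. The difference was -1.18 at 48 h and -2.29 at 96 h, and -1.74 (SE 0.59, n = 2 arrays a group), which is 3.33-fold lower, over both, the 6th lowest of the 23244 probes. Whether the difference at 96 h exceeds that at 48 h was not tested, with 1 array for each. Without the ALKBH3 array at 96 h the difference was -0.90.

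The second FAM20A probe, A_24_P352952, was dim, and gave the same direction. Its log2 signals were -4.74 with control and -5.56 with ALKBH3 shRNA at 48 h, then -4.93 and -6.13 at 96 h, from intensities between 34.1 and 80.7. Its groups did not overlap, and only the step from control at 96 h to ALKBH3 shRNA at 48 h was beyond the spot error. The difference was -1.01 (SE 0.23), 2.02-fold lower, the 55th lowest. Both probes carry the same RefSeq accession, and the fall on the brighter probe was greater by 0.36 at 48 h and by 1.08 at 96 h on the log2 scale. With another background correction (normexp) the dimmer probe gave -0.46 and with the authors' normalized values -0.70.

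The relatives of FAM20A stayed near their control values. FAM20B, the xylose kinase (A_24_P148043), had log2 signals of 1.53 with control and 1.44 with ALKBH3 shRNA at 48 h, then 1.49 and 1.37 at 96 h. Its groups did not overlap, but its 4 values spanned less than the spot error, with a difference of -0.10 (SE 0.12). FAM20C, the kinase that FAM20A serves (A_23_P250122), had 1.86 and 1.69 at 48 h and 1.87 and 2.06 at 96 h. The ALKBH3 values of FAM20C lay on either side of the control values, and the difference was 0.01 (SE 0.17).

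**Figure D1:**
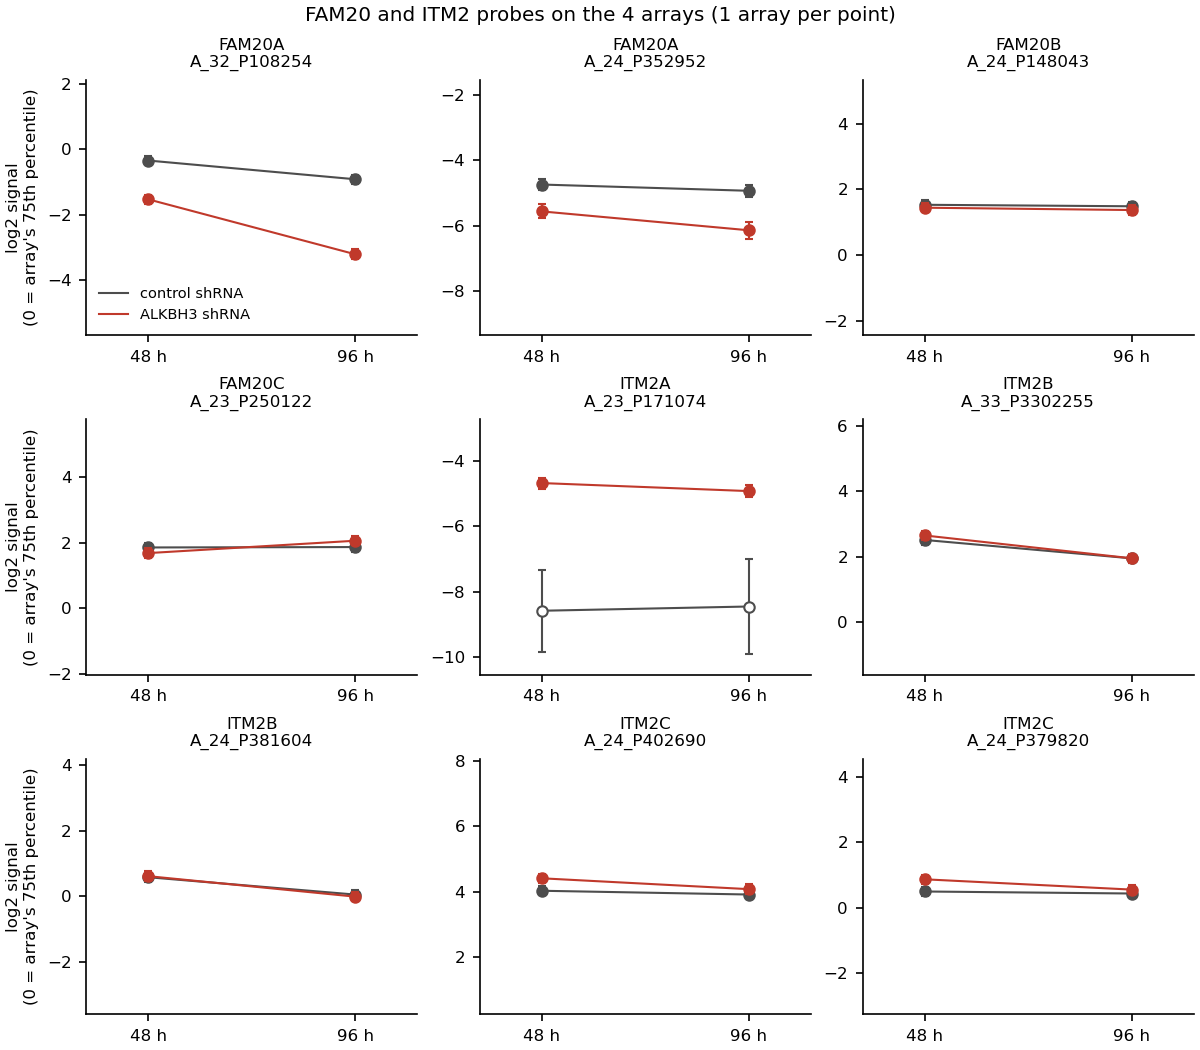
Log2 signal (vertical axis, 0 is the array's 75th percentile) of the 9 FAM20 and ITM2 probes at 48 h and 96 h of selection (horizontal axis), 1 array a point, with control shRNA in grey, ALKBH3 shRNA in red, bars for the spot error of the software and open points for values not well above background. Every panel spans the same number of log2 units, and the shRNA lines stand apart for FAM20A (-1.18 at 48 h and -2.29 at 96 h on the brighter probe) and ITM2A and lie close together for the other 4 genes.

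ITM2A was above background with ALKBH3 shRNA and not with control shRNA. The intensity of its 1 probe, A_23_P171074, was 5.63 with control and 89.3 with ALKBH3 shRNA at 48 h, then 6.71 with control and 78.9 with ALKBH3 shRNA at 96 h. Neither control value was well above background, with spot errors of 4.89 and 6.70, about as large as the values, so only a lower bound on the rise can be given. With the lowest signal that was well above background on each control array in place of the ITM2A value, ITM2A was at least 3.67-fold higher with ALKBH3 shRNA, at least 4.51-fold at 48 h and at least 2.99-fold at 96 h. These bounds hold only for the background correction used here. The mean bound is 1.88 on the log2 scale, and the difference was smaller with normexp (0.86) and in the authors' normalized values (1.57). The raw median pixel, before any correction, was 58 with control and 146 with ALKBH3 shRNA at 48 h, then 73 and 147.5 at 96 h, over a local background of 24 to 27. Both ALKBH3 arrays were thus above both control arrays in the raw signal too.

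The measured log2 signals of ITM2A were -8.58 and -4.68 at 48 h and -8.45 and -4.92 at 96 h, a difference of 3.71 that ranked 1st of 23244 but rests on control values not well above background. It was 0.86 with normexp, 1.57 in the authors' normalized values and 3.56 after quantile normalization. ITM2A was higher with ALKBH3 shRNA in all 3. The ALKBH3 arrays differed from each other by 0.25, less than the spot error.

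**Figure D2:**
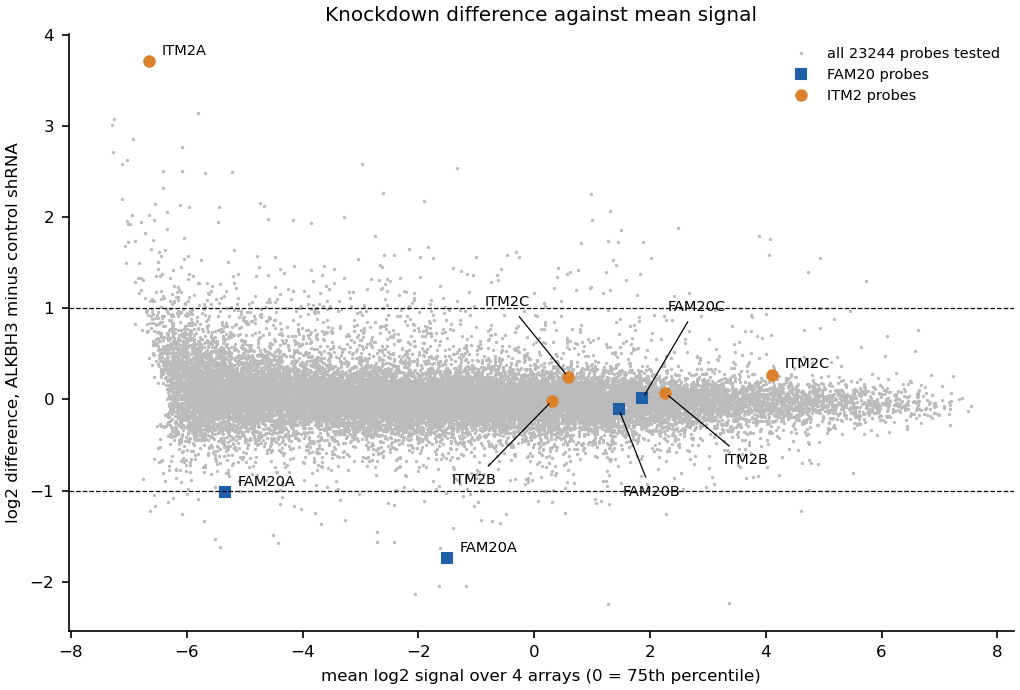
Difference between ALKBH3 and control shRNA (log2, vertical axis) against the mean log2 signal over the 4 arrays (horizontal axis, 0 is the 75th percentile) for the 23244 probes tested (grey), with FAM20 probes as blue squares, ITM2 probes as orange circles and dashed lines at 2-fold. ITM2A has the highest measured difference, 3.71, at low mean signal, where the control values are not well above background, FAM20A gives -1.74 and -1.01, and the 6 other probes lie between -0.10 and 0.27.

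ITM2B, the member cut by furin, differed little between the shRNAs on both of its probes. A_33_P3302255 had log2 signals of 2.51 with control and 2.65 with ALKBH3 shRNA at 48 h and of 1.95 with either at 96 h, and A_24_P381604 had 0.58 and 0.61 at 48 h and 0.05 and -0.012 at 96 h. The differences were 0.07 (SE 0.32) and -0.015 (SE 0.29), and on both probes the groups overlapped. ITM2C was slightly above control at both times. A_24_P402690 had 4.03 with control and 4.41 with ALKBH3 shRNA at 48 h, then 3.91 and 4.07 at 96 h, and A_24_P379820 had 0.50 and 0.87, and 0.44 and 0.55. The groups of ITM2C did not overlap on either probe, at 0.27 (SE 0.16) and 0.25 (SE 0.16), yet no step between neighbouring arrays exceeded the spot error. The differences on the probes of a gene lay 0.104 and 0.066 apart at 48 h and 96 h for ITM2B, and 0.0083 and 0.045 apart for ITM2C.

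Over the 9 probes, FAM20A on both probes and ITM2A passed the cutoffs of the study, a 2-fold change with an unadjusted p below 0.05, which 0.886% of all probes tested passed as higher and 0.232% as lower. The groups did not overlap on 6 of the 9, the probes of FAM20A, FAM20B, ITM2A and ITM2C, where 36.0% of all probes tested did not overlap either. Since the families were chosen on this contrast, nothing is read from these counts. The lowest difference that still passed as higher was 1.002 and the smallest fall that passed was -1.003, so the dimmer FAM20A probe at -1.01 was just inside and ITM2C, the next of the families, far outside. The median difference of all probes was 0.003, and the median size of a difference was 0.126.

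The change from 48 h to 96 h played no part in the choice of the families and was tested for each probe. ITM2B was the member with the clearest difference, lower at 96 h with either shRNA. On A_33_P3302255 it was lower by 0.56 with control and by 0.70 with ALKBH3 shRNA on the log2 scale, and on A_24_P381604 by 0.53 and 0.63. The mean differences were -0.63 (SE 0.10, limma adjusted p = 0.147) and -0.58 (SE 0.094, limma adjusted p = 0.147), lower at 96 h with both shRNAs on both probes. The test without a block missed the threshold, as it did for every probe on the array, with 0 of 23244 at an adjusted p below 0.05 and 4128 at an unadjusted p below 0.05. With the shRNA as a block, the limma adjusted p was 0.0324 and 0.0338, and 9.98% of all probes had one below 0.05.

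The other members did not pass in either test. FAM20A was lower at 96 h by 0.57 with control and by 1.68 with ALKBH3 shRNA on its brighter probe, a mean of -1.12 (SE 0.88, limma adjusted p = 0.541, and 0.0685 with the block). On its dimmer probe the mean was -0.38 (SE 0.50, limma adjusted p = 0.719). FAM20B gave -0.06 (SE 0.10, limma adjusted p = 0.792), FAM20C 0.19 (SE 0.13, limma adjusted p = 0.472) and ITM2C -0.22 (SE 0.17, limma adjusted p = 0.526) and -0.19 (SE 0.16, limma adjusted p = 0.578). For ITM2A only the ALKBH3 arrays carry a measured level, and they differed by -0.25. Of all members, only FAM20A on its brighter probe had a mean difference of over 2-fold with time, and its p kept it outside the 2-fold and p cutoffs, which 0.146% of all probes passed as higher and 0.525% as lower at 96 h. Time of selection and slide cannot be told apart here.

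**Figure D3:**
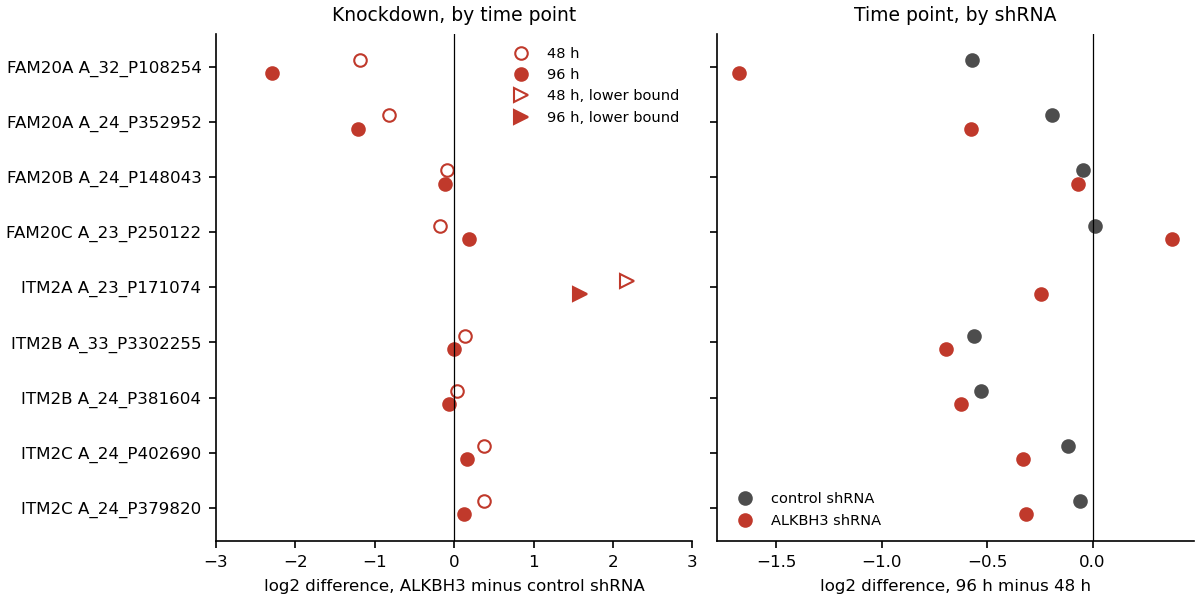
Log2 differences of the 9 probes, on the left between ALKBH3 and control shRNA at 48 h (open) and 96 h (filled), with triangles for the log2 of the lower bound of ITM2A, and on the right between 96 h and 48 h for control (grey) and ALKBH3 shRNA (red), where the control value of ITM2A is left out as not measured. FAM20A lies left of 0 on both sides, ITM2B is near 0 between the shRNAs and at -0.53 to -0.70 between the times, and FAM20C changes sign between the times on the left, from -0.17 to 0.19.

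The genes that work beside the families were read from 5 lists, with the members left out and 1 probe, the brightest tested, for each gene. Among all 14556 genes tested, 1.06% passed the cutoffs as higher, 0.240% as lower and 8.15% had an unadjusted p below 0.05 (23.3% with the time point as a block), and the median difference was -0.003. Of 8 other secretory pathway kinases tested, of 10 listed, 0 passed the cutoffs and 0 had an unadjusted limma p below 0.05 (4 with the time point as a block), with a median of 0.08. DIPK1B and FJX1, kinase relatives of the secretory pathway and the family of four-jointed, had 0.34 (SE 0.13) and 0.34 (SE 0.13). Of 15 genes for known FAM20C substrates, 6 were tested, and most genes of bone and enamel matrix, among them SPP1, DMP1 and ENAM, were not well above background on both arrays of either shRNA. None of the 6 passed, 0 had an unadjusted limma p below 0.05 (3 with the block), and the median was -0.05. STIM1, the calcium sensor of the endoplasmic reticulum, had -0.32 (SE 0.13) and IGFBP1, a secreted binder of insulin-like growth factors, -0.28 (SE 0.35).

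The list nearest to FAM20B, the synthesis of glycosaminoglycan linkers and chains, held the lowest values. Of 15 genes tested, 1 passed the cutoffs as lower and 0 as higher, 3 had an unadjusted limma p below 0.05 (4 with the block), and the median was -0.03. XYLT2, a xylosyltransferase that adds the xylose on which FAM20B acts, had log2 signals of 3.65 with control and 2.74 with ALKBH3 shRNA at 48 h, then 3.50 and 2.56 at 96 h. Its groups did not overlap, and the falls at the times were alike at -0.90 and -0.94. The mean of -0.92 (SE 0.14) had an unadjusted p of 0.0015 and an adjusted p of 0.361 by limma. With the time point as a block the limma adjusted p was 0.0306, and 3.30% of all genes had one below 0.05. CSGALNACT1, which starts chondroitin chains on the linker, had log2 signals of -2.33 with control and -3.02 with the knockdown at 48 h and of -2.70 and -4.08 at 96 h. Its mean of -1.04 (SE 0.39) was the 1 value past the cutoffs, with an unadjusted p of 0.0475 and an adjusted p of 0.644 by limma. The count of 1 was 0 with normexp and in the authors' values, 0 without the ALKBH3 array at 96 h, 0 without the control array at 48 h and 2 without the ALKBH3 array at 48 h.

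Of the other BRICHOS genes, 3 of 6 were tested and 0 passed the cutoffs or an unadjusted limma p of 0.05 (1 with the block), with a median of 0.07. SFTPC, a lung surfactant protein, had 0.07 (SE 0.12) and BRICD5 0.01 (SE 0.18). GKN2, a gastric protein picked out after its value was seen and above background on 3 arrays only, had -6.43 with control and -5.80 with ALKBH3 shRNA at 48 h, then -5.96 and -4.62 at 96 h. Its mean was 0.99 (SE 0.43, limma adjusted p = 0.704). Without the ALKBH3 array at 48 h or without the control array at 96 h, 1 gene of this list passed. Of 9 tested genes among the proteases of ITM2B and APP, 0 passed the cutoffs, 1 had an unadjusted limma p below 0.05 (3 with the block), and the median was -0.01. ADAM17, a sheddase, was the 1 without the block, at -0.48 (SE 0.14, limma adjusted p = 0.562), and FURIN, which cuts ITM2B, had 0.44 (SE 0.27, limma adjusted p = 0.808).

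**Figure D4:**
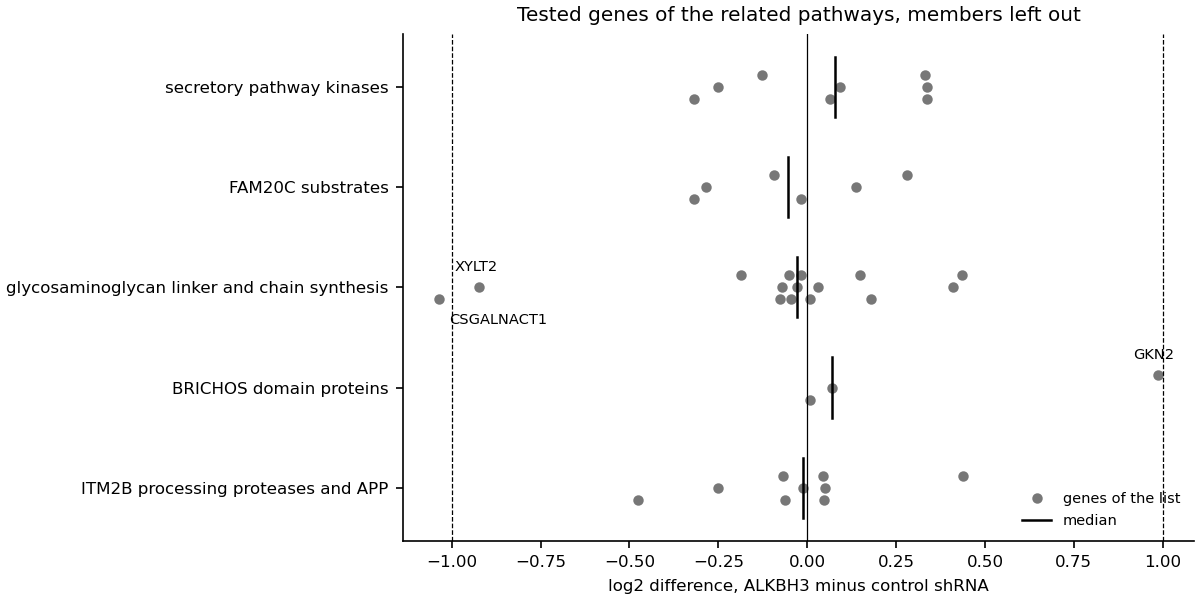
Difference between ALKBH3 and control shRNA (log2, horizontal axis) of each tested gene in the 5 lists (vertical axis) without the FAM20 and ITM2 genes, with a black bar at each list's median and dashed lines at 2-fold, and points set off vertically only so that they can be seen. The medians lie between -0.05 and 0.08, CSGALNACT1 (-1.04) is the 1 gene past the 2-fold line with an unadjusted limma p below 0.05, and XYLT2 (-0.92) and GKN2 (0.99) lie just short of 2-fold.

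The pattern of the brighter FAM20A probe over the 4 arrays was set against those of 14019 genes well above background on all of them, by Euclidean distance between log2 signals less their own mean. The 5 nearest were VSTM2L (0.648), HLF (0.692), GJB2 (0.727), ALK (0.727) and DACH1 (0.731). VSTM2L, the nearest, differed by -0.67 at 48 h and -1.59 at 96 h, and HLF, a circadian PAR bZIP factor, by -1.87 and -2.39. Like FAM20A, all 5 were lowest with ALKBH3 shRNA at 96 h, which follows from their choice by nearness to its pattern. For ITM2A, 177 genes were likewise above background on both ALKBH3 arrays and neither control array, and COL20A1 (0.857), TSBP1 (0.930), RP1 (1.004), CELSR1 (1.41) and CCL20 (1.42) were nearest. These distances rest on 4 arrays and, for ITM2A, on control values that carry no measured level.

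Markers of cell types that could carry these genes were read beside them. In bulk RNA, more cells of a type and more RNA in each cell cannot be told apart. The PC3 cells gave all 5 epithelial markers on all 4 arrays, with a summed log2 signal of 7.50 and 7.38 at 48 h and 7.38 and 7.33 at 96 h. KLK3, a prostate luminal marker, was above background on none. For T cells and leukocytes, where ITM2A is known, 5 of 6 markers were above background on all arrays. Of these, PTPRC, CD3D, CD3E and CD8A were dim, between -5.65 and -3.89. The lowest signal well above background lay between -6.85 and -6.50 on the arrays. The sum over all 6 was 2.62 with control and 3.28 with ALKBH3 shRNA at 48 h, then 3.26 and 3.09 at 96 h. Nearly all of it was CD4, at 2.58 and 3.25 at 48 h, then 3.23 and 3.06 at 96 h, so the sum follows that gene and not the list. The defining CD3D lay between -4.93 and -4.65 on the 4 arrays. For chondrocytes 3 of 4 were above background on all arrays, with a sum of -0.16 and -0.07 at 48 h and -0.27 and -0.48 at 96 h, and CNMD on none. Of the fibroblast markers 1 of 4 was on all arrays, and their sum moved with the knockdown, from -0.68 to -0.04 at 48 h and from -1.36 to -0.41 at 96 h, while COL1A2 and PDGFRB were on none. LUM in that list was -5.00 and -3.01 at 48 h and -6.19 and -4.21 at 96 h. Among the 5 epithelial genes, EPCAM went from 2.87 with control to 3.83 with ALKBH3 shRNA at 48 h and from 2.41 to 3.40 at 96 h, and CDH1 from -0.12 to 0.78 and from -1.28 to -0.71. KRT19 went the other way, from 7.03 to 6.76 and from 6.83 to 6.75, as did KRT18, from 5.30 to 5.27 and from 5.44 to 5.32, and KRT8 went from 1.72 to 1.82 and from 1.59 to 1.55. Of 3 endothelial markers 2 were on all arrays. The sum over all 3 was lower with ALKBH3 shRNA, from -2.29 to -2.64 at 48 h and from -2.35 to -2.68 at 96 h. PECAM1 went from -3.14 to -3.86 and from -3.77 to -4.22. CDH5 was almost level at 48 h, from -3.69 to -3.72, and went from -3.18 to -3.55 at 96 h. VWF went the other way, from -6.26 to -6.00 and from -6.24 to -5.91, so the endothelial markers did not move together. Of 3 B cell markers 2 were on all arrays, with a sum between 0.46 and 0.75. Like the leukocyte sum, the chondrocyte, fibroblast and B cell sums were mostly 1 gene each, SOX9, COL1A1 and CD79A. The part of these genes in the values of FAM20A and ITM2A was not tested.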

How the data were processed

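RNA of PC3 cells was labelled with Cy3 and hybridised to 4 single-colour Agilent arrays. Spot intensities were deposited as the authors' scanner software, Agilent Feature Extraction (10.7.3.1 in the file headers), wrote them, with background subtracted, spatial trends removed and a floor set per array. The authors also deposited log2 values normalized between arrays with limma, without the method named, and these served as an alternative. No depth applies to arrays, whose number of 4 limits precision.

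Flagged spots, between 180 and 379 an array, were left out, spots of a probe were averaged as log2 intensities less the 75th percentile of the array. The files hold no gene symbols, so 24910 of 34127 probes were named through their RefSeq accession in a GRCh38.p14 gene table. Probes well above background on both arrays of 1 shRNA (23244) were fitted with limma 3.58.1 in R 4.3.3 (lmFit, eBayes, no covariate) and Benjamini-Hochberg adjustment over all of them, after a test on simulated data. The cutoffs were a fold of 2 and an unadjusted p of 0.05. The p-values measure only the spread between arrays, since no label tells of separate cultures. Without a block, the SE and p between the shRNAs also hold the change with time and slide, in which the arrays of an shRNA differ. With the time point as a block, the SE was 0.27 in place of 0.59 for the brighter FAM20A probe. It was 0.089 in place of 0.32 for the ITM2B probe A_33_P3302255. The time points pair the arrays, since each shared a slide and the change from 48 h to 96 h correlated between the shRNAs at r = 0.66 across the probes, which are not independent replicates.

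The genes and lists were chosen with earlier results of these data known. Named genes were the members, ALKBH3, genes of a list past the cutoffs, the 2 largest non-member changes of each list among genes above background on all arrays, and the 5 nearest patterns to FAM20A and ITM2A. Alternatives were normexp (offset 50), quantile and median centring, the percentile over detected probes, the authors' values, the block, other filters, genes in place of probes, the unpaired Student test that the methods name, and each array left out. Promoter windows were taken from RefSeq sequences of GRCh38.p14. One marker gene is not reported here.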

Additional observations from a re-analysis of the deposited data

Results flagged for a closer look

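FAM20C and the dimmer ITM2B probe, A_24_P381604, drew attention because the shRNA difference had opposite signs at the 2 times. For FAM20C it was -0.17 at 48 h and 0.19 at 96 h, and for ITM2B 0.032 and -0.063, on the log2 scale. With 1 array for each shRNA and time, the difference between the times was not tested. All 4 of these shRNA differences lie within the spot error of the arrays.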

How the results depend on the processing

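Between the shRNAs, both FAM20A probes, FAM20B, ITM2A and both ITM2C probes kept their sign in all 10 alternatives, FAM20C in 6 and ITM2B in 5 and 8. ITM2A gave 0.86 with normexp, 3.56 with quantile normalization and 1.57 in the authors' values, and 3.59 to 3.83 with 1 array left out, where the brighter FAM20A probe ranged from -2.58 to -0.90. Probes past the cutoffs as higher, 206, numbered 76 with normexp, 118 in the authors' values, 495 without a filter, 123 with a filter on all 4 arrays, 60 with the methods' t-test and 0 by adjusted p (1780 at an unadjusted limma p below 0.05), and 232 to 418 with 1 array left out, over 1.5 times the count without the control array at 48 h or the ALKBH3 array at 96 h. As lower, 54 became 27, 113 without a filter, 34 when refitted on 1 probe a gene, 25 with the t-test and 0 by adjusted p, and 52 to 134, over 1.5 times without the ALKBH3 array at 48 h or the control array at 96 h. With the time point as a replicate block, 685 probes passed by adjusted p and the counts past the cutoffs were 257 and 60, while the differences are the same by construction. For 96 h against 48 h, 34 higher and 122 lower became 14 and 58 with normexp, 21 higher in the authors' values and 190 lower with the shRNA as a block, and 43 to 175 and 142 to 328 with 1 array left out, highest without the ALKBH3 array at 48 h and without the control array at 48 h. With that block ITM2B passed, at -0.58 and -0.63 with limma adjusted p = 0.0338 and 0.0324. The time difference of FAM20A reversed without the ALKBH3 array at 96 h, to 0.021 and 0.22, and on the dimmer probe without the control array at 48 h, to 0.03. With an array left out the shRNAs are unequal between the times, so these values mix the shRNA difference with the time difference. Within each shRNA FAM20A was lower at 96 h, by 0.57 with control and 1.68 with ALKBH3 shRNA on the brighter probe, and by 0.19 and 0.58 on the dimmer. For ITM2A, leaving out an array sets control values with no measured level against ALKBH3 values, so the reversals without the ALKBH3 array at 48 h, to 1.89, and without the control array at 96 h, to 1.70, follow from which array is left out. With 1 array left out, these time differences ranged from -2.27 to 0.021 and from -0.99 to 0.22 for FAM20A and from -2.01 to 1.89 for ITM2A. The 1 glycosaminoglycan gene past the cutoffs became 0 with normexp and in the authors' values, and 0 to 2 with 1 array left out, and the 0 BRICHOS genes 0 to 1. The causes were not tested. Signal over background limits ITM2A and the dimmer FAM20A probe.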
